A study of Mus musculus with 4 samples.

Results

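The 10 genes described here are the core circadian clock genes *Arntl*, *Clock*, *Per1*, *Per2*, *Per3*, *Cry1*, *Cry2*, *Nr1d1* and *Nr1d2* and the clock output gene *Dbp*. Their transcripts were found by gene symbol, and every tested transcript that carries one of these symbols was used. This gave 19 transcripts of 10 genes among 34200 transcripts of 21945 genes. Polyadenylated RNA was sequenced from NIH/3T3 cells, an immortalised line of mouse fibroblasts. Knockdown (KD) cells were transfected with both *Setd2*-specific siRNAs and wild type (WT) cells with a Scrambled, non-targeting siRNA. In both groups the final concentration of siRNA was 10 nM, the transfection reagent was the same and RNA was taken 48 h after transfection. SETD2 is the histone methyltransferase that deposits H3K36me3 along transcribed genes, and each group had 2 libraries. The WT cells are therefore transfected cells and not untreated ones, and all libraries come from 1 line and 1 time point.

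In mammalian cells the clock is a transcriptional feedback loop that runs over the day. BMAL1, the product of *Arntl*, and CLOCK form a dimer that binds E-boxes and activates the *Per*, *Cry*, *Nr1d* and *Dbp* genes, and PER and CRY proteins then enter the nucleus and inhibit that dimer. In a connected loop REV-ERBα and REV-ERBβ, the products of *Nr1d1* and *Nr1d2*, repress *Arntl* through response elements that ROR receptors also bind, and DBP activates target genes through D-boxes. Cultured fibroblasts carry this oscillator in every cell, but the phases of cells drift apart unless a stimulus such as a serum or medium change sets them. With RNA from 1 time point, a shift in phase, a loss of synchrony and a change in mean level cannot be told apart.

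The promoters through which these loops act were read from RefSeq sequence on GRCm38.p6 as windows from 250 bases before to 50 bases after each annotated start, and 13 such windows were held for 9 of the 10 genes. Shown are the 250 bases before the start for *Per1*, whose 2 windows lie at the starts of different tested transcripts, and for *Per3* and *Cry1*, whose windows held 2 matches each. Capitals mark matches to an E-box (CACGTG), an E′-box (CACGTT, or AACGTG on the other strand) or a D-box (TTANGTAA).
*Per1*, the start of the main transcript, plus strand, chr11:69098699-69098948: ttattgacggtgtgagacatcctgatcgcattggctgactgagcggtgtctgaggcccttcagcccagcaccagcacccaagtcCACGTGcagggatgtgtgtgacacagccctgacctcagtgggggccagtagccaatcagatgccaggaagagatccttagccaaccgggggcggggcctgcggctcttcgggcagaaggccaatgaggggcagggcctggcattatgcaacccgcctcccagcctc
*Per1*, the downstream start, plus strand, chr11:69099902-69100151: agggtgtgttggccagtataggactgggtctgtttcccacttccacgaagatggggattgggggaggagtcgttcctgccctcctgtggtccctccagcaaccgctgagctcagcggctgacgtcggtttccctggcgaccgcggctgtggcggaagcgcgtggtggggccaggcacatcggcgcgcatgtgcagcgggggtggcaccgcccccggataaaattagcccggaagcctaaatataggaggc
*Per3*, minus strand, chr4:151044666-151044915: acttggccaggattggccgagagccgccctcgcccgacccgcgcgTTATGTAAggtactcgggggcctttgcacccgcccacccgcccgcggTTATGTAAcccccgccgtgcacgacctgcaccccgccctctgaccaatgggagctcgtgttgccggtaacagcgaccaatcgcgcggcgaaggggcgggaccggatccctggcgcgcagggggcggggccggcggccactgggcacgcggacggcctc
*Cry1*, minus strand, chr10:85185055-85185304: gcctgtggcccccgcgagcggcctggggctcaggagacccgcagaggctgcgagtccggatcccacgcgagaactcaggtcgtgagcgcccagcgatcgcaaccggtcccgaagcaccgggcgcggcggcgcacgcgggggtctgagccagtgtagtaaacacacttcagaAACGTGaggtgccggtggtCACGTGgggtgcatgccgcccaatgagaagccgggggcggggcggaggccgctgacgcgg

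The E-box of *Per1* began 166 bases before the start of the main transcript, and the window of the downstream start held no match to any of the 5 motifs searched on both strands. In *Per3* both D-boxes had the same 8 letters and began 205 and 158 bases before the start. *Cry1* had an E-box that began 60 bases and an E′-box that began 79 bases before its start. Of the windows not printed, that of *Cry2* held an E′-box 166 bases before the start, that of *Nr1d1* an E′-box 28 bases before the start, and 1 of the *Arntl* windows the core of the REV-ERB and ROR response element (TAGGTCA) 30 bases after the start. No match was found in the windows of *Clock*, *Nr1d2* or *Dbp*, nor any full cyclic AMP response element (TGACGTCA) in the 13 windows. The *Dbp* window was set at position 45705247, near the starts of ENSMUST00000211513.1 and ENSMUST00000211357.1. The main *Dbp* transcript begins upstream, at 45705088, and 159 of the 250 bases before the start of that window are exonic. The sequence before the main *Dbp* start was therefore searched only in part. Over 32851 RefSeq windows of the same length, 7.15% held the E-box, 4.68% the E′-box, 2.32% the D-box, 2.61% the TAGGTCA core and 1.79% the TGACGTCA element. The clock windows ranged from 47% to 76.7% GC and from 9 to 46 CpG dinucleotides, against medians of 52.7% and 7 over all windows.

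Levels are given as normalised estimated counts, the authors' mean over the 4 libraries taken on a log scale and turned back, and are divided by transcript length wherever genes are compared. No per-library value enters this account, so the depth is unknown. The deposited variances separate the spread within groups from that between groups, but they carry no sign, so which group had the higher level is not given. From them a moderated F-test of KD against WT without direction was computed for every transcript. A transcript passed at a Benjamini-Hochberg adjusted p under 0.05 over all 34200 transcripts. The p-values measure only the spread between these libraries, which the design text describes as independent transfections. *Setd2*, the targeted gene, had a level of 1844 normalised estimated counts for ENSMUST00000153838.7 (chromosome 9, 110532597 to 110618633), an SD of 0.048 within groups on the log2 scale and 99.9% of its sum of squares between the groups (adjusted p = 0.0144).

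All 10 clock genes were above the median gene in level per kilobase. The median of the 10 was 414 normalised estimated counts per kilobase, adding up the tested transcripts of each gene, against 121 for all genes. The nuclear receptor genes led the order, with 843 for *Nr1d1* and 809.7 for *Nr1d2*, followed by 673 for *Per1*. *Cry2*, *Clock* and *Dbp* lay close together at 460.4, 420.4 and 407. *Arntl* had 307, *Per3* 281, *Cry1* 226 and *Per2* 156, so the highest gene was 5.39-fold above the lowest. The distance to the next gene stayed within the combined SD over the 4 libraries, that of the highest transcript of each gene, for 5 of 9 neighbours in this order, namely *Nr1d1* and *Nr1d2*, *Cry2* and *Clock*, *Clock* and *Dbp*, *Arntl* and *Per3*, and *Per3* and *Cry1*. The steps from *Nr1d2* to *Per1*, from *Per1* to *Cry2*, from *Dbp* to *Arntl* and from *Cry1* to *Per2* were larger than that SD. The order changed where the highest transcript of each gene was counted alone. *Dbp*, at 228, then lay under *Arntl* at 262 and *Per3* at 281, and *Per1* at 465 and *Cry2* at 434 lay closer than their combined SD of 0.13 on the log2 scale.

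**Figure D1:**
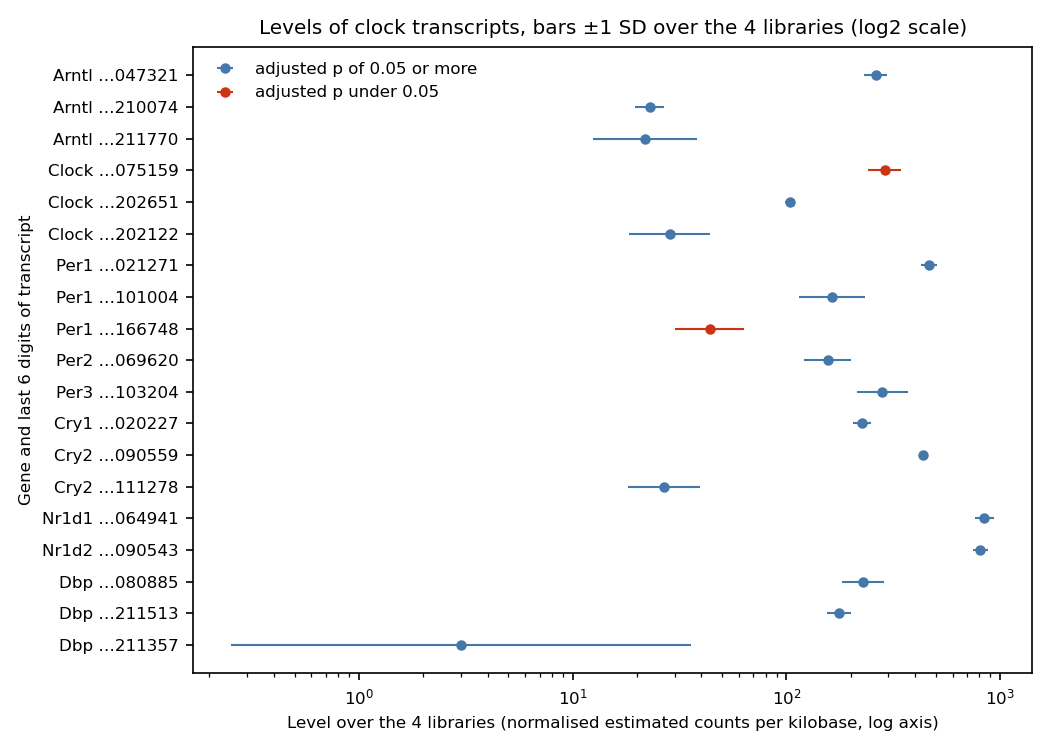
Level of each of the 19 clock transcripts over the 4 libraries, in normalised estimated counts per kilobase on a log axis. Points are the authors' means turned back from the log scale, bars are 1 SD over the 4 libraries on the log2 scale, and the 2 red points passed the test of KD against WT. *Nr1d1* and *Nr1d2* are farthest to the right, and the longest bar belongs to the *Dbp* transcript with a level of 3.01 per kilobase.

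Of the 19 clock transcripts 2 passed the test of KD against WT, 1 of *Clock* and 1 of *Per1*, while 9.68% of all tested transcripts passed (3312 of 34200). The other 8 genes had no transcript past the threshold. At an unadjusted p under 0.05 there were 7 of the 19 clock transcripts, beside 9656 or 28.2% of all transcripts. The median share of the sum of squares that lay between the groups was 56.6% for the clock transcripts and 57% for all transcripts. Without any difference the mean share would be 33.3%, and that mean is not directly comparable with these medians. With 2 libraries in each group, the values of the groups cannot overlap where this share exceeds 50% and must overlap where it is under 33.3%. The groups could not overlap for 11 of the 19 clock transcripts, beside 54.8% of all transcripts, they had to overlap for 4, and for the other 4 the variances do not settle it. More than 80% lay between the groups for 6 of the 19 transcripts, beside 32.4% of all transcripts. By these counts the clock transcripts stood near the background of the whole table.

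*Clock* encodes the DNA-binding partner of BMAL1, and its main transcript ENSMUST00000075159.4 (chromosome 5, 76212177 to 76304548, minus strand) passed the test. It had a level of 2154 normalised estimated counts, which was 64.8% of the counts of the gene. Its SD was 0.26 over the 4 libraries but 0.075 within groups on the log2 scale, and 94.5% of its sum of squares lay between the groups (adjusted p = 0.0496). That value lies just under the threshold and ranged from 0.0169 to 1 over the alternative analyses. The transcript ENSMUST00000202651.3 holds the same coding sequence, begins 244 bases upstream and ends 2309 bases further on. It had a level of 1013, with an SD of 0.082 over the 4 libraries and 0.036 within groups. Both are less than the 0.093 that comes from read assignment alone. Of its sum of squares 86.9% lay between the groups, but the transcript did not pass (adjusted p = 0.387). The third *Clock* transcript, ENSMUST00000202122.1, had a level of 157 and varied within groups by an SD of 0.51 (adjusted p = 0.225). Only 2.4% of the 31-base stretches of the main transcript are found in no other annotated transcript, so counts of the *Clock* isoforms are estimates of how shared reads divide.

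*Arntl* encodes BMAL1, the activator that dimerises with CLOCK. Its main transcript ENSMUST00000047321.8 (chromosome 7, 113207465 to 113314126, plus strand) had a level of 761 normalised estimated counts, 87.1% of the gene. Its 4 libraries had an SD of 0.18 on the log2 scale, and 99.9% of the sum of squares lay between the groups. Within groups the SD was 0.0079, while read assignment alone gave 0.079, and the moderated test did not pass (adjusted p = 0.108). The within-group value was smaller than its own read assignment error, as it was for 6 of the 19 clock transcripts and for 42.9% of all transcripts. The other *Arntl* transcripts had levels of 58.4 (ENSMUST00000210074.1) and 53.9 (ENSMUST00000211770.1), with adjusted p of 0.551 and 0.237.

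The *Per* genes encode the scaffold proteins of the repressor complex, and *Per1* and *Per2* are also induced acutely by serum and hormones. The main *Per1* transcript ENSMUST00000021271.13 (chromosome 11, 69098948 to 69109960, plus strand) had a level of 2173, 73.7% of the gene, with an SD of 0.12 both over the 4 libraries and within groups (adjusted p = 0.576). The transcript that passed, ENSMUST00000166748.7 (69100158 to 69109948), codes for the same 1291 amino acids but begins 1210 bases downstream, near the start whose printed window had no E-box. It had a level of 203, 6.87% of the gene, with an SD of 0.53 over the 4 libraries, 0.10 within groups and 97.5% of the sum of squares between them (adjusted p = 0.035, from 0.0205 to 1 over the alternatives). Read assignment alone gave an SD of 0.50, and 0.738% of its 31-base stretches are in no other transcript. The shorter *Per1* transcript ENSMUST00000101004.8, whose start was not searched for motifs, begins 3731 bases upstream of the main one, ends 3502 bases early and had a level of 575, with an SD of 0.51 over the 4 libraries and 0.36 within groups (adjusted p = 0.15). The 3 transcripts of *Per1* thus gave 1 call, on the transcript with the lowest level of the 3.

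*Per2* and *Per3* each had 1 tested transcript, nearly all of whose 31-base stretches are unique, and both lay just outside the threshold. *Per2* (ENSMUST00000069620.9, chromosome 1, 91415982 to 91459324, minus strand) had a level of 912 and an SD of 0.37 over the 4 libraries, 0.14 within groups and 0.044 from read assignment. Of its sum of squares 90.9% lay between the groups (adjusted p = 0.0517, from 0.0101 to 1 over the alternatives). *Per3* (ENSMUST00000103204.10, chromosome 4, 151003652 to 151044665, minus strand) had a level of 1684 and an SD of 0.40, 0.17 within groups and 0.034 from read assignment. Here 88% lay between the groups (adjusted p = 0.0536, from 0.00208 to 1 over the alternatives). Among transcripts of like level, *Per3* was at the 90th percentile of spread over the 4 libraries and *Per2* at the 82nd.

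The *Cry* genes encode the cryptochromes, the main inhibitors of the CLOCK and BMAL1 dimer, and no transcript of them passed. *Cry1* (ENSMUST00000020227.10, chromosome 10, 85131700 to 85185064, minus strand) had a level of 683 and an SD of 0.14 both over the 4 libraries and within groups (adjusted p = 0.548). By the highest transcript of each gene, *Cry2* varied least of the 10 genes. Its main transcript ENSMUST00000090559.11 (chromosome 2, 92403646 to 92434043, minus strand) had a level of 1724 and an SD of 0.048, the lowest of the 19, at percentile 4.71 of transcripts of like level (adjusted p = 0.854). The other *Cry2* transcript, ENSMUST00000111278.1, with the same coding sequence and a 3′ end 7614 bases earlier, had a level of 57.9 and an SD of 0.56 (adjusted p = 0.426). Of its bases 6.9% overlap D930015M05Rik on the opposite strand.

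The nuclear receptor genes *Nr1d1* and *Nr1d2* had the highest levels per kilobase of the 10 genes and did not pass the test. *Nr1d1* (ENSMUST00000064941.6, chromosome 11, 98767932 to 98775333, minus strand) had a level of 2293 with an SD of 0.15 over the 4 libraries and 0.13 within groups (adjusted p = 0.377). *Nr1d2* (ENSMUST00000090543.5, chromosome 14, 18204054 to 18239127, minus strand) had a level of 3775, an SD of 0.12 and 63% of the sum of squares between the groups (adjusted p = 0.295). *Nr1d1* shares 263 bases, 9.67% of its transcript, with *Thra* on the opposite strand. The library kit keeps the strand, but whether the counting used it is not given in the sources used here, so reads of such partners may not be separate.

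*Dbp* encodes a PAR bZIP activator and is a direct target of CLOCK and BMAL1. Its main transcript ENSMUST00000080885.11 (chromosome 7, 45705088 to 45710203, plus strand) had a level of 418 and an SD of 0.33 over the 4 libraries, 0.22 within groups and 0.10 from read assignment (adjusted p = 0.168). ENSMUST00000211513.1 had a level of 203 and an SD of 0.19, less than the 0.28 from read assignment (adjusted p = 0.448). ENSMUST00000211357.1 was barely detected at a level of 3.77 and had an SD of 4.38 within groups (adjusted p = 0.983). *Dbp* had the largest antisense overlap of the clock genes, since 29.3% to 38.9% of the bases of its transcripts lie opposite to *Sphk2*.

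**Figure D2:**
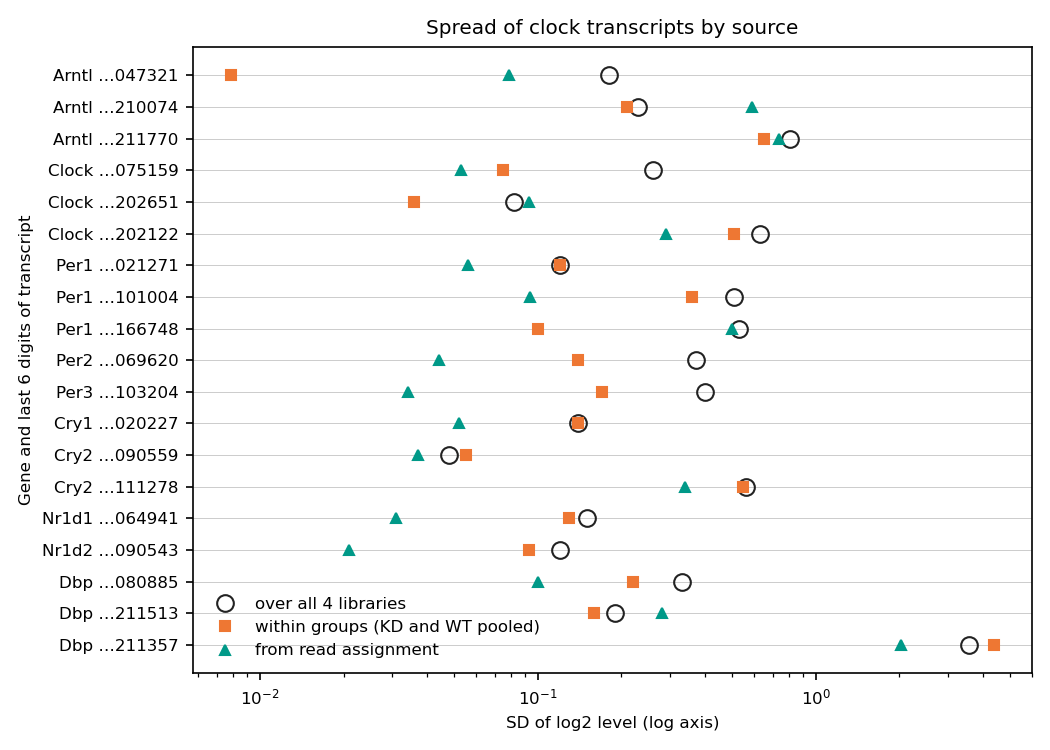
SD of the log2 level of each clock transcript on a log axis, over all 4 libraries (open circles), within KD and WT pooled (squares) and from read assignment alone (triangles). A circle far to the right of its square marks a transcript whose spread lies mostly between the groups. Examples are *Arntl* ENSMUST00000047321.8, *Clock* ENSMUST00000075159.4, *Per1* ENSMUST00000166748.7, *Per2* and *Per3*. For these *Arntl* and *Per1* transcripts the square lies left of the triangle, so the SD within groups was under that from read assignment.

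Which transcripts passed differed between settings of the test. Among transcripts with a level of at least 100 normalised estimated counts, 4 of 15 clock transcripts passed, namely those of *Clock* and *Per1* above with *Per2* and *Per3*, where 26.4% of all such transcripts passed. With the within-group variance held at or above that from read assignment, 5 of 19 passed, these same 4 and *Per1* ENSMUST00000101004.8, where 14.6% of all transcripts passed. With 1 prior variance for all levels no clock transcript passed and 0.371% of all transcripts did.

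**Figure D3:**
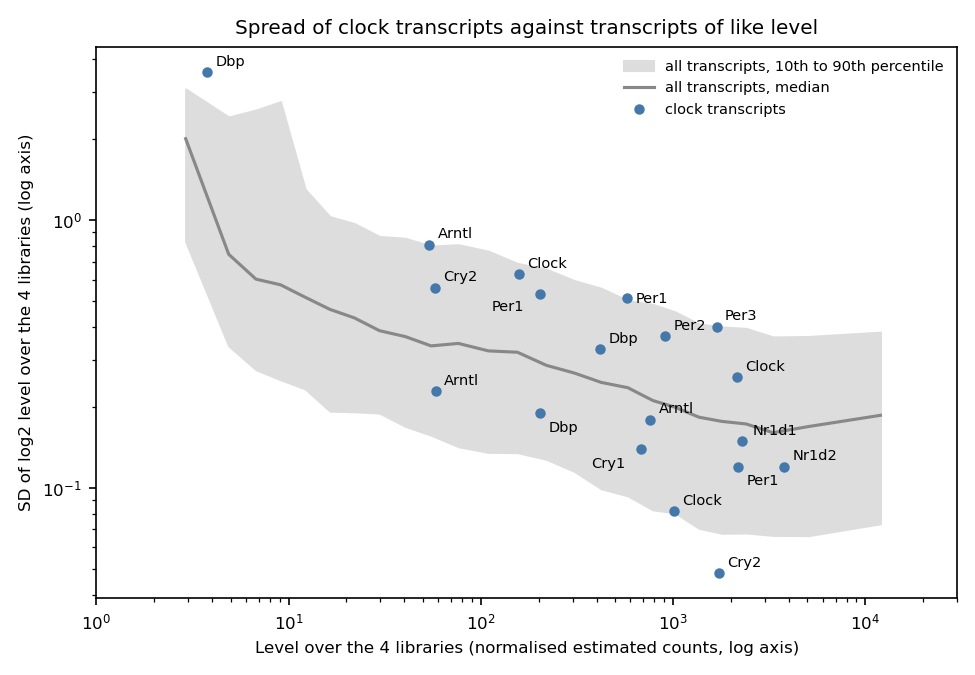
SD of the log2 level over the 4 libraries against level, both on log axes, for the 19 clock transcripts (points) and all transcripts (line: median, band: 10th to 90th percentile). *Cry2* at a level of 1724 lies under the band, the *Dbp* transcript at 3.77 above it, and *Per3* at 1684 on its upper edge, and the median percentile of the 19 points among transcripts of like level was 66.9.

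A wider list of 26 clock-associated genes, with further receptors, repressors, bZIP factors, kinases and ubiquitin ligases, had 49 tested transcripts of 24 genes, and 2 of the 49 passed, beside the 9.68% of all transcripts. *Gsk3b*, a kinase that phosphorylates several clock proteins, passed with ENSMUST00000023507.12 at a level of 3170.5, with an SD of 0.27 over the 4 libraries and 0.046 within groups (adjusted p = 0.035). This call was lost without the trend in the prior variance and with the ordinary F-test, at an adjusted p of 0.152 in each. The other *Gsk3b* transcript, ENSMUST00000114750.1, had a level of 439.7 and did not pass (adjusted p = 0.4). At an unadjusted p under 0.05 there were 8 of the 49, beside 28.2% of all transcripts. The largest adjusted p of the list was 0.992, for the casein kinase gene transcript *Csnk1e* ENSMUST00000122044.7.

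The cells carried fibroblast RNA. Of 12 fibroblast markers 11 were tested, led by *S100a4* at 458932, *Vim* at 68589 and *Col1a2* at 51076 normalised estimated counts per kilobase, down to 423 for *Fbn1*. Of the markers of other cells, *Krt14* of epithelial cells, at 138, was above the median gene, and the others tested were below 121, with *Cdh1* at 25.4, also epithelial, *Snap25* at 31.9 and *Tubb3* at 1.62 for neurons, *Pecam1* at 9.24, *Cdh5* at 7.73 and *Kdr* at 1.2 for endothelial cells, and *Ptprc* at 6.4 and *Itgam* at 1.8 for blood cells. In bulk RNA a change in every cell and a change in the share of cells in a given phase cannot be told apart.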

How the data were processed

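Polyadenylated RNA of 2 KD and 2 WT libraries was analysed, grouped by the condition in their labels. The authors removed adapters with BBDuk, estimated counts per transcript with Kallisto and summarised them with Sleuth. Per the labels the build was GRCm38, and bcl2fastq 2.17, HISAT2 and Sleuth are among the tools. The transcriptome index and the filter on low counts are not given in the sources used here. The deposited mean is the authors' mean over the 4 libraries of normalised estimated counts plus 0.5, on the natural log scale. The deposited variances, on the same natural log scale, are those over the 4 libraries, from read assignment, and between libraries after the groups were fitted. The last comes from the authors' own model of the groups. Other deposited columns hold the authors' effects with standard errors, test statistics, p-values and q-values, and the gene table p-values and q-values for genes. These were neither used nor compared.

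Levels were computed as the exponential of the mean minus 0.5. Sums of squares over the 4 libraries and within groups (2 residual degrees of freedom) were rebuilt from the variances, their difference was taken as the part between groups, and the within-group variance was moderated with limma 3.58.1 (R 4.3.3) with a trend on the mean. The variances would give the size of the difference only without its sign, so no fold is given. In the undirected F-test, p-values were adjusted over all transcripts by the Benjamini-Hochberg method. Spread percentiles used a window that spans 10% of the ranks of level, centred on the transcript. Annotation was GENCODE M21, to which 98.6% of transcripts matched by versioned identifier, and 31-base stretches were compared over its basic transcripts. Depth is unknown, so no interval for counting error is given.

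Members and lists were chosen with earlier results of these data known. All members are named, and from the wider list each transcript past the threshold and those with the smallest and largest adjusted p. Of these, 1 transcript is not reported here. *Npas2* and *Fbxl21* of that list had no tested transcript.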

Additional observations from a re-analysis of the deposited data

How the results depend on the processing

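The number of transcripts past the threshold moved with the estimate of the within-group variance, with the adjustment and with a limit on the level. Without a trend in the prior variance, 127 of all transcripts, 0 of the 19 clock transcripts and 0 of the 49 transcripts of the wider list passed. With the ordinary F-test on 2 residual degrees of freedom these counts were 10, 0 and 0, and with Bonferroni adjustment 2, 0 and 0. With the within-group variance held at or above that of read assignment, 4996 of all transcripts (14.6%) and 5 of the 19 clock transcripts passed. With a level of at least 100, these were 4965 of 18808 transcripts (26.4%) and 4 of 15 clock transcripts. By limma, 7 of the 19 clock transcripts had an unadjusted p under 0.05, beside 28.2% of all transcripts. The *Clock* and *Per1* calls were lost without the trend, at adjusted p of 0.17 and 0.114, and with the ordinary F-test, at 0.198 and 0.161. Levels per kilobase moved beyond their spread for 1 of 10 genes, *Cry2*, when 200 bases were taken from each length, and for 5 when the highest transcript alone was counted, which put *Dbp* (228) under *Arntl* (262). Spread percentiles moved by 10 or more for 10 of 19 transcripts when all transcripts were the reference.

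No paired analysis was possible because no per-library value was used here, and for the same reason leaving out each replicate was not run. How far 1 library decides a call is therefore unknown.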
